A study of Mus musculus with 32 samples.

Results

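Chemokines are small secreted proteins, and their receptors are G protein-coupled receptors on the cells that follow them. The genes described here were chosen by name: every gene in the deposited count tables whose symbol begins with Ccl, Cxcl, Cx3cl, Xcl, Ccr, Cxcr, Cx3cr or Xcr followed by a digit. This gave 59 of 23284 genes, 39 ligands and 20 receptors. Of these, 44 had 10 or more counts in at least 3 of the 32 libraries and are described: 28 ligands and 16 receptors. The other 15 were rarely counted, and 5 of them (Ccl21a, Ccl21b, Ccl21c, Ccl27b and Ccl28) had 0 counts in every library. In the count annotation Ccl21a, Ccl21b, Ccl21c and Ccl27b share exon bases with other gene names, so their 0 does not show that they were not transcribed.

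RNA was sequenced from brachiocephalic arteries (BCA) bearing atherosclerotic lesions and from cultured aortic smooth muscle cells, in C57BL/6 mice that were wild type (WT) or Oct4 -/- (KO). Oct4, annotated as Pou5f1, is a transcription factor best known from pluripotent cells. Animals ate a Western Diet for 18 weeks, with 4 per genotype, and the artery samples are labelled as a mixture of cell types. Cultures received vehicle or POVPC, an oxidised phospholipid found in oxidised low-density lipoprotein, in normoxia or in hypoxia at 1% oxygen, with 3 libraries in each of 8 groups. The cultures came from 1 primary line per genotype, so genotype and line cannot be told apart there, and p-values measure the spread between triplicates whose nature is not stated. From what is known of the published study, Oct4 was deleted in smooth muscle with an inducible Myh11-driven Cre on an Apoe-deficient background, which the labels do not give. The animals' age and the length of the culture treatments are not given in the sources used here.

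Ligands with paired cysteines at the amino terminus (Ccl) draw mainly monocytes, T cells, dendritic cells and eosinophils, while Cxcl ligands such as Cxcl1 draw neutrophils through Cxcr2. Cxcl12 acts through Cxcr4 and is taken up by Cxcr7, also named Ackr3. Ccl2 and Ccl7 are ligands of Ccr2, which brings monocytes out of the marrow and into atherosclerotic plaques. Cx3cl1 (fractalkine) and Cxcl16 are made as membrane-anchored proteins and bind Cx3cr1 and Cxcr6. Smooth muscle cells in the vessel wall can make several of these ligands when exposed to cytokines or oxidised lipids.

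Depth was 6526099 to 11137414 counted fragments in lesions and 8063121 to 30231799 counted reads in culture, where each mate of a pair was counted. Levels are CPM (counts scaled to library size times its TMM factor), or CPM per kilobase of exon (RPKM) where genes are compared with each other. In a lesion library 3 counts equal 0.266 to 0.455 CPM, and in a culture library 0.0954 to 0.410 CPM. Pou5f1 had at most 3 counts in 1 lesion library and at most 2 counts in 3 culture libraries, so the knockout could not be checked at this depth. The 5 smooth muscle markers (Myh11, Acta2, Cnn1, Tagln, Smtn) summed to 5231 to 8058 CPM in WT lesions and 3676 to 5490.1 CPM in KO lesions. In culture the same sum was lower, from 33.4 to 46.7 CPM in WT POVPC hypoxia to 283 to 332 CPM in WT vehicle normoxia, beside fibroblast markers (Pdgfra, Dpt, Pi16) at 22.9 to 25.7 CPM in WT vehicle hypoxia and 276 to 318 CPM in KO vehicle hypoxia. Neutrophil, T cell and endothelial markers summed to at most 0.273, 0.55 and 4.45 CPM in culture. Lymphatic endothelial markers, mainly Flt4, summed to 11.8 to 12.9 CPM in WT vehicle hypoxia and 5.60 to 8.64 CPM in WT POVPC hypoxia, and to at most 2.71 CPM in the other culture groups.

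A few culture libraries stood apart. B cell markers summed to 29.1 CPM, or 213 counts, in WT POVPC hypoxia 2 and to at most 1.20 CPM in every other culture library. Without that library the calls of Cxcl17 and Xcr1 between genotypes with POVPC in hypoxia and that of Cxcl12 between oxygen levels in WT with POVPC were lost, and the part of the B cell markers in these was not tested. The 3 shallowest culture libraries, WT POVPC hypoxia 1 and 2 and KO vehicle hypoxia 3, held 8063121 to 13663755 counted reads. They had 5.79, 9.24 and 8.07 multi-mapping alignments for each counted read, against 0.743 to 3.88 in the other culture libraries. Leaving out these 3 leaves WT POVPC hypoxia with 1 library, which is then assumed to vary like the other groups.

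Of the 44 genes, 30 matched an entry in RefSeq's promoter table for build GRCm38.p6, with 34 transcription starts, Cxcr7 through its name Ackr3. The counts themselves were made on build mm9, and coordinates of genes are given on mm9. Cxcl1, Cxcl15 and Cxcl12 are shown because they had the highest culture levels and were called in 13 or 14 of the 16 culture comparisons described below. The 250 bases before the start are printed 5′ to 3′ on the plus strand, with matches to the motifs searched in capitals. Cxcl1 at chr5:90890995-90891244, Cxcl15 at chr5:90794284-90794533 and Cxcl12 at chr6:117168285-117168534 read:
Cxcl1: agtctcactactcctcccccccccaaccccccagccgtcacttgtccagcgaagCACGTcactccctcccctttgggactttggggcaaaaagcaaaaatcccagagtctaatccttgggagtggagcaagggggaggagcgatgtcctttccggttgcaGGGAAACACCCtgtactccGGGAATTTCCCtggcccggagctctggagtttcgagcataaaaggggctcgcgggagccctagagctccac
Cxcl15: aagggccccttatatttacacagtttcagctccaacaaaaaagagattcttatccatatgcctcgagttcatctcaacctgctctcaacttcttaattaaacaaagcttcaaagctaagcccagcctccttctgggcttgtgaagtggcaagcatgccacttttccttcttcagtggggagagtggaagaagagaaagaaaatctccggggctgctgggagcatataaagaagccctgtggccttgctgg
Cxcl12: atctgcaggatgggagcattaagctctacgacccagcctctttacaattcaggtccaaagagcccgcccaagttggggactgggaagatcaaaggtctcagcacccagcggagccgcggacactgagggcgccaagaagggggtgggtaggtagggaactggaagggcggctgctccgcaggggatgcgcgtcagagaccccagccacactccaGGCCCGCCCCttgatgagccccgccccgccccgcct
The motifs were searched on both strands of 300 bases around each start. They were an NF-kB-like motif (GGG, any 5 bases, CC), an AP-1 motif TGANTCA, a hypoxia response core ACGTG and an interferon response motif (GAAA, any 2 bases, GAAA). The NF-kB-like motif, a loose pattern, was in 50.8% of all 32851 promoters of that length and in 18 of the 34 here. AP-1 was in 7.81% of all and 4 of 34, the hypoxia core in 19.6% of all and 3 of 34, and the interferon motif in 3.44% of all and 2 of 34. Cxcl1 held 4 NF-kB-like matches, which overlap as 2 pairs on opposite strands, and 1 hypoxia core. Cxcl12 held 1 NF-kB-like match and Cxcl15 held none of the 4 motifs. A match is a run of letters and not a measured binding site.

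The genes differed in where they were found. In culture the highest mean levels over 24 libraries were Cxcl12 at 244 RPKM and Cxcl15 at 133 RPKM, followed by Cxcl1 at 34.4, Ccl7 at 23.9 and the receptor Cxcr7 at 15.5 RPKM. In lesions the highest mean levels over 8 libraries were Ccl6 at 132 RPKM, Ccl8 at 49.97, Cxcl12 at 47.7, Cxcl16 at 37.9, Cxcr4 at 37.7 and Cxcr7 at 37.5 RPKM. Cxcl15, a lung-enriched neutrophil chemokine, reached 23182 counts in a culture library and no more than 5 counts in any lesion library. Leukocyte receptors showed the opposite pattern: Ccr1 had at most 2 counts in any culture library and Ccr2 at most 4, while Cxcr4 reached 24 counts in WT POVPC hypoxia 2, the library with B cell markers, and at most 4 in every other culture library. The macrophage ligands Ccl3 and Ccl4 had 0 counts in all 24 culture libraries, where 3 counts equal 0.0954 to 0.410 CPM. That floor covers counting error only. A pair can count as 2 reads in culture, so the level that 0 counts allow may be higher. Lesion and culture tables were counted differently, so these levels are set side by side without a test.

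**Figure D1:**
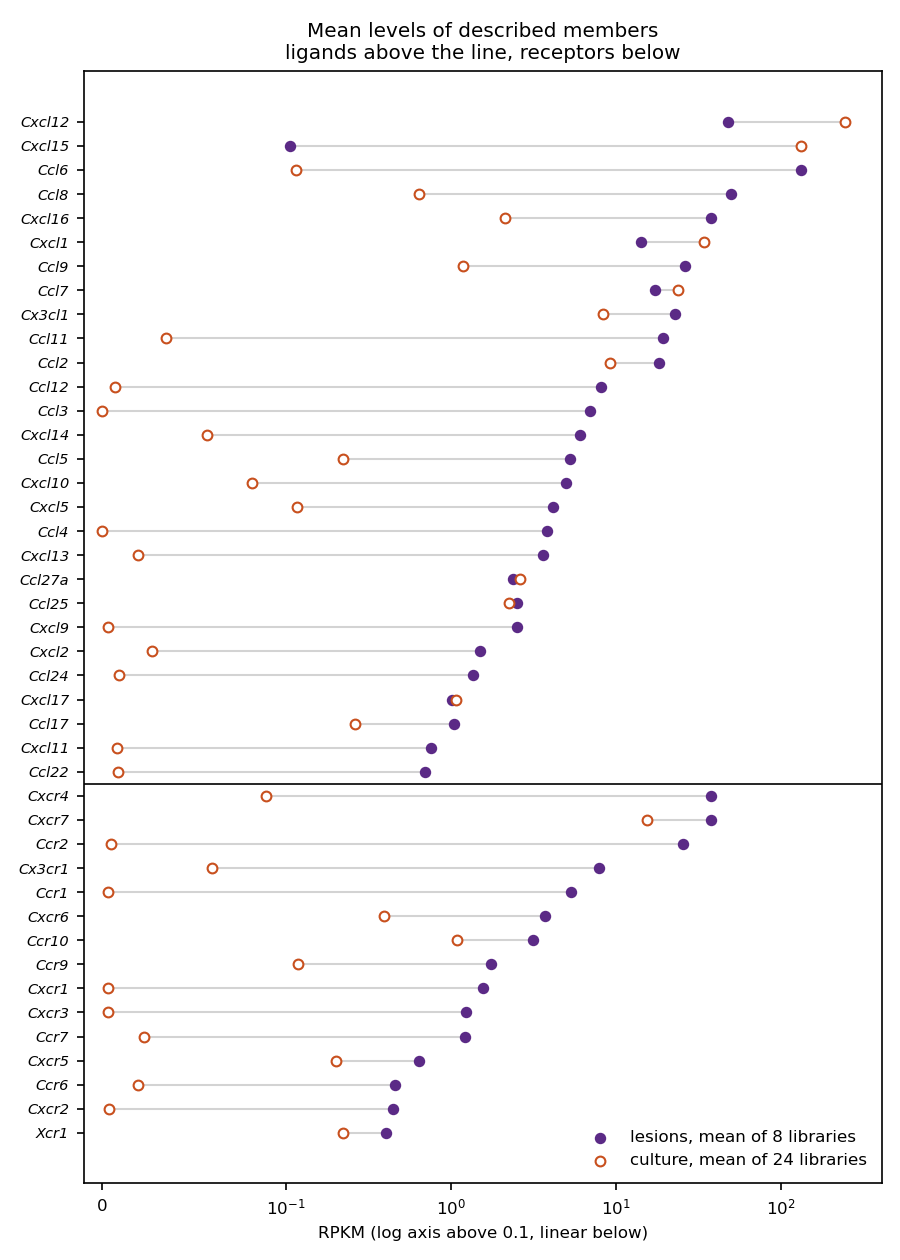
Mean level of 43 of the 44 described genes in RPKM (x axis, log scale above 0.1), with filled points for the 8 lesion libraries and open points for the 24 culture libraries, and ligands above receptors. Cxcl12 lies at 244 RPKM in culture and 47.7 in lesions, Cxcl15 at 133 and 0.107, and most receptors have their open point near 0.

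Whether the KO line differed from the WT line was asked in 4 culture conditions, over 20 members with enough counts (13 ligands, 7 receptors). These 20 passed a filter that needs a minimum count in 3 libraries, so a gene present in 1 group alone could pass through it. Called means an adjusted p (Benjamini-Hochberg over all genes tested, written edgeR FDR) under 0.05. In vehicle normoxia 4 members were higher in KO (background 29.8% of all 14496 genes tested) and 9 were lower (background 30.8%). In vehicle hypoxia 4 were higher (background 29.5%) and 8 lower (background 30.4%). With POVPC in normoxia 3 were higher (background 29.5%) and 10 lower (background 30.7%), and with POVPC in hypoxia 3 were higher (background 30%) and 10 lower (background 27.6%). The count of higher members lay below the background share in each condition and that of lower members above it. Ccl2, Ccl7, Cx3cl1, Cxcl15, Cxcl17 and Ccr10 were called lower in KO in all 4 conditions, and Ccl27a was called higher in all 4. Comparisons that share a group share its libraries.

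Marker genes of cell types also differed between the lines. Fibroblast markers summed to 474 to 507 CPM in KO and 264 to 289 in WT with vehicle in normoxia. With POVPC in normoxia they summed to 454 to 518 in KO and 137 to 153 in WT. Of the 3 tested, 2 were called higher in KO with vehicle (background 29.8%) and 1 lower (background 30.8%). With POVPC 2 were called higher (background 29.5%) and 0 lower (background 30.7%). The largest of them was Pdgfra in each WT library and Dpt in each KO library of these groups. Smooth muscle markers summed to 125 to 179.7 CPM in KO and 283 to 332 in WT with vehicle in normoxia. There 4 of the 5 were called lower in KO (background 30.8%) and 1 higher (background 29.8%). Acta2 was the largest of them in each WT library of that condition and Smtn in each KO library. With POVPC in normoxia the smooth muscle markers summed to 151 to 163 CPM in KO and 153 to 189 in WT. With vehicle in hypoxia they summed to 66.1 to 70.2 in KO and 65.9 to 78.2 in WT. With POVPC in hypoxia they summed to 43.0 to 65.4 in KO and 33.4 to 46.7 in WT. The ranges overlapped in these 3 conditions. Macrophage markers summed to 15.7 to 18.7 CPM in KO and 29.5 to 32.3 in WT with vehicle in normoxia and to 13.97 to 16.2 in KO and 53.7 to 63.9 in WT with POVPC. Most of each of these sums was Cd14, a lipopolysaccharide co-receptor. Between the lines with POVPC the log2 difference of Cd14 was -2.09 ± 0.12 (SE, edgeR FDR 5.62e-15). For POVPC in WT its log2 change was 0.98 ± 0.12 (SE, edgeR FDR 8.48e-08). Of the 5 macrophage markers tested, 1 was called lower in KO with vehicle in normoxia (background 30.8%) and 0 higher (background 29.8%). There 3 of the 5 had positive differences. With POVPC in normoxia 2 were called lower (background 30.7%) and 0 higher (background 29.5%), and 1 had a positive difference. Of the 8 macrophage markers, 3 (Emr1, Itgam and Lyz2) had 0 counts in WT POVPC normoxia, and the others were counted there. The part of these markers in the chemokine values was not tested.

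Ccl2 and Ccl7, neighbouring genes at chr11:81849079-81850954 and chr11:81859214-81861025 (plus strand, mm9), were the members farthest below WT in normoxia. Ccl2 in WT stood at 6.33, 6.52 and 5.56 CPM with vehicle in normoxia, 14.1, 15.5 and 15.1 with POVPC, 7.35, 9.44 and 6.33 with vehicle in hypoxia and 22.6, 24.2 and 22.7 with POVPC in hypoxia. In KO it stood at 0.922, 1.23 and 0.796 CPM with vehicle in normoxia, 0.509, 0.926 and 0.649 with POVPC, 2.70, 2.33 and 2.85 with vehicle in hypoxia and 2.91, 2.94 and 4.44 with POVPC in hypoxia. Every KO library was below every WT library of Ccl2, also across conditions. The log2 difference KO minus WT was -2.64 ± 0.21 (SE, edgeR FDR 8.88e-12) in vehicle normoxia, -4.43 ± 0.21 (SE, edgeR FDR 4.9e-17) with POVPC in normoxia, -1.55 ± 0.19 (SE, edgeR FDR 4.47e-08) in vehicle hypoxia and -2.75 ± 0.18 (SE, edgeR FDR 8.11e-14) with POVPC in hypoxia.

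Ccl7, a second Ccr2 ligand, showed the wider gap. In WT it stood at 31.5, 31.6 and 31.9 CPM with vehicle in normoxia, 75.5, 104 and 94.7 with POVPC, 5.29, 5.05 and 4.40 with vehicle in hypoxia and 15.5, 24.4 and 17.9 with POVPC in hypoxia. In KO it stayed low in all 4 groups, at 1.54, 1.23 and 1.55 CPM with vehicle in normoxia, 0.954, 1.21 and 1.18 with POVPC, 0.801, 1.57 and 1.63 with vehicle in hypoxia and 0.996, 2.08 and 1.11 with POVPC in hypoxia. The log2 difference was -4.46 ± 0.21 (SE, edgeR FDR 1.57e-16) in vehicle normoxia, -6.36 ± 0.21 (SE, edgeR FDR 1.08e-19) with POVPC in normoxia, -1.95 ± 0.25 (SE, edgeR FDR 1.3e-07) in vehicle hypoxia and -3.77 ± 0.21 (SE, edgeR FDR 2.6e-14) with POVPC in hypoxia. The highest KO library, 2.08 CPM, was below the lowest WT library, 4.40 CPM. The neighbouring genes Ccl11 (at most 8 counts in a culture library) and Ccl12 were not tested in culture, and Ccl8 is described below.

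**Figure D2:**
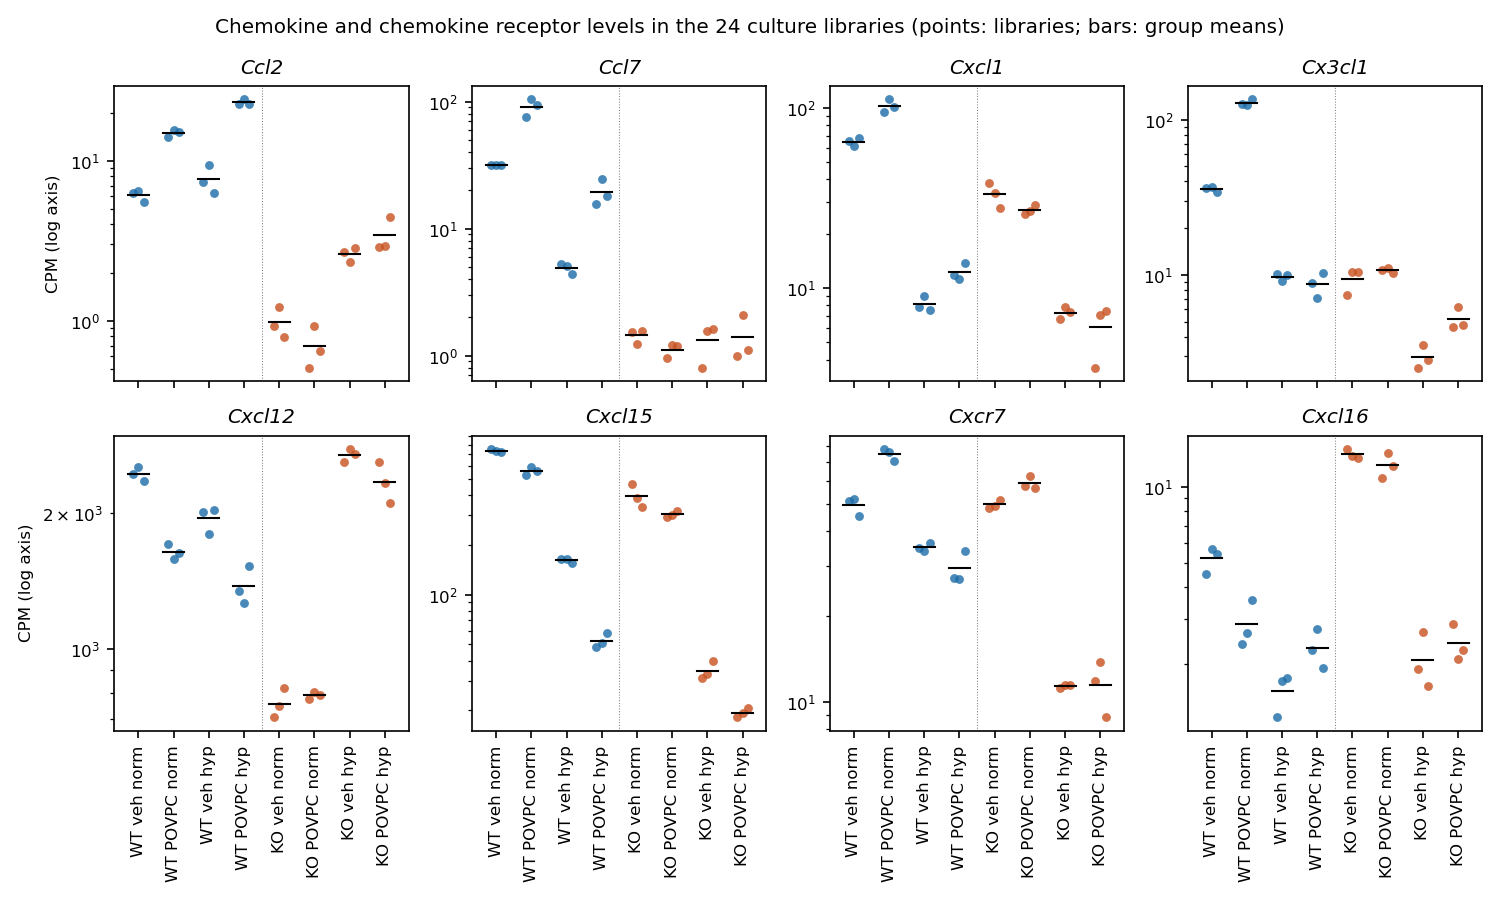
Level of 8 members in each of the 24 culture libraries in CPM (y axis, log scale, each panel on its own range), with WT groups in blue to the left and KO groups in orange to the right (veh, vehicle; norm, normoxia; hyp, hypoxia), and bars at group means. Ccl2 and Ccl7 lie lower in every KO library, while Cxcl12 lies lower in KO in normoxia and higher in KO in hypoxia.

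Cxcl15 and Cxcl1 lie in 1 cluster with Cxcl5 and Cxcl2 on chromosome 5, at chr5:91223560-91232093 and chr5:91320271-91322141 (plus strand, mm9). Cxcl15 in WT stood at 756, 737 and 726 CPM with vehicle in normoxia, 523, 591 and 559 with POVPC, 163, 163 and 155 with vehicle in hypoxia and 48.5, 50.9 and 58.5 with POVPC in hypoxia. In KO it was at 462, 384 and 337 CPM with vehicle in normoxia, 294, 304 and 321 with POVPC, 31.4, 33.4 and 39.7 with vehicle in hypoxia and 18.2, 19.3 and 20.7 with POVPC in hypoxia. KO was below WT in each condition without overlap. The log2 difference KO minus WT was -0.91 ± 0.092, -0.86 ± 0.092, -2.21 ± 0.098 and -1.44 ± 0.099 (SE) in that order, with edgeR FDR at most 3.21e-09.

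Cxcl1, a neutrophil chemokine of many stromal cells, stood in WT at 65.2, 61.1 and 67.6 CPM with vehicle in normoxia, 94.9, 111 and 101 with POVPC, 7.88, 9.003 and 7.58 with vehicle in hypoxia and 11.9, 11.2 and 13.8 with POVPC in hypoxia. In KO it stood at 38.2, 33.4 and 27.7 CPM with vehicle in normoxia, 25.7, 26.7 and 28.7 with POVPC, 6.70, 7.86 and 7.33 with vehicle in hypoxia and 3.61, 7.09 and 7.42 with POVPC in hypoxia. It was called lower in KO in vehicle normoxia at -0.97 ± 0.14 (SE, edgeR FDR 1.59e-06), with POVPC in normoxia at -1.92 ± 0.14 (SE, edgeR FDR 1.1e-11) and with POVPC in hypoxia at -1.06 ± 0.17 (SE, edgeR FDR 1.12e-05). In vehicle hypoxia the groups overlapped and the difference was -0.15 ± 0.17 (SE, edgeR FDR 0.461). Cxcl5 had at most 20 counts in a culture library and did not pass the test between genotypes in any condition.

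Cx3cl1, at chr8:97296080-97306326 (plus strand, mm9) between Ccl22 and Ccl17, was low in KO also. In WT it stood at 36.4, 36.8 and 34.1 CPM with vehicle in normoxia, 126, 124 and 135 with POVPC, 10.1, 9.11 and 9.95 with vehicle in hypoxia and 8.93, 7.10 and 10.2 with POVPC in hypoxia. In KO it stood at 7.48, 10.4 and 10.5 CPM with vehicle in normoxia, 10.7, 11.2 and 10.2 with POVPC, 2.53, 3.52 and 2.85 with vehicle in hypoxia and 4.65, 6.23 and 4.75 with POVPC in hypoxia. The 3 WT libraries with POVPC in normoxia stood above all others. The log2 difference was -1.91 ± 0.12 (SE, edgeR FDR 3.79e-14) in vehicle normoxia, -3.58 ± 0.12 (SE, edgeR FDR 2.76e-20) with POVPC in normoxia, -1.71 ± 0.15 (SE, edgeR FDR 7.6e-11) in vehicle hypoxia and -0.80 ± 0.14 (SE, edgeR FDR 2.17e-05) with POVPC in hypoxia.

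Cxcl16, the other membrane-anchored ligand, at chr11:70267736-70273486 (minus strand, mm9), went the other way in normoxia. With vehicle in normoxia it stood at 4.53, 5.69 and 5.42 CPM in WT against 14.1, 13.2 and 12.98 in KO, and with POVPC at 2.38, 2.64 and 3.56 against 10.8, 13.5 and 12.03. With vehicle in hypoxia it stood at 1.23, 1.70 and 1.76 CPM in WT against 1.90, 2.67 and 1.63 in KO, and with POVPC in hypoxia at 2.27, 2.73 and 1.91 against 2.86, 2.08 and 2.27. It was called higher in KO in normoxia, at 1.36 ± 0.17 (SE, edgeR FDR 4.51e-08) with vehicle and 2.09 ± 0.18 (SE, edgeR FDR 3.72e-11) with POVPC. In hypoxia the groups overlapped, at 0.45 ± 0.23 (SE, edgeR FDR 0.0903) with vehicle and 0.13 ± 0.23 (SE, edgeR FDR 0.65) with POVPC. Its exons share 363 bases with Zmynd15 on the opposite strand, and reads counted without strand cannot be assigned between them. Its receptor Cxcr6 had at most 72 counts in a culture library and was not called between genotypes by edgeR over all libraries, with a log2 difference of -1.28 ± 0.59 (SE, edgeR FDR 0.0649) in vehicle normoxia. There it was called lower in KO without KO vehicle normoxia 3 (-2.37, FDR 0.00538), with scaling by library size alone (-1.43, FDR 0.0354), with counts halved (-1.26, FDR 0.0252) and without the 3 shallowest libraries (-1.26, FDR 0.0428). With POVPC in normoxia it was called lower when the compared groups were fitted alone (-1.03, FDR 0.00818).

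Cxcl12 was the most abundant member in culture, at chr6:117118553-117131386 (plus strand, mm9), and its genotype difference turned with oxygen. In WT it stood at 2441, 2528 and 2347 CPM with vehicle in normoxia, 1710.5, 1581 and 1628 with POVPC, 2009, 1796 and 2031 with vehicle in hypoxia and 1348, 1268 and 1529 with POVPC in hypoxia. In KO it stood at 708, 748 and 822 CPM with vehicle in normoxia, 778, 806 and 794 with POVPC, 2594, 2769 and 2692 with vehicle in hypoxia and 2589, 2327 and 2101 with POVPC in hypoxia. KO was below WT without overlap in normoxia and above it without overlap in hypoxia. The log2 difference was -1.68 ± 0.08 (SE, edgeR FDR 5.98e-17) in vehicle normoxia, -1.05 ± 0.079 (SE, edgeR FDR 2.03e-12) with POVPC in normoxia, 0.46 ± 0.078 (SE, edgeR FDR 8.38e-06) in vehicle hypoxia and 0.76 ± 0.079 (SE, edgeR FDR 2.23e-09) with POVPC in hypoxia.

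Cxcr7, which binds Cxcl12 without classical G protein signalling, had the highest level of the receptors in culture, at chr1:92100578-92112863 (plus strand, mm9). It stood at 51.3, 52.1 and 45.3 CPM in WT vehicle normoxia and 48.4, 49.2 and 51.6 CPM in KO, and the difference there was 0.0059 ± 0.1 (SE, edgeR FDR 0.965). With POVPC in normoxia it stood at 78.0, 76.3 and 70.7 CPM in WT and 57.5, 62.5 and 57.0 in KO, a difference of -0.35 ± 0.099 (SE, edgeR FDR 0.0034). In vehicle hypoxia it stood at 35.0, 34.0 and 36.4 CPM in WT and 11.1, 11.4 and 11.4 in KO, and with POVPC in hypoxia at 27.4, 27.2 and 34.0 CPM in WT and 11.8, 13.8 and 8.80 in KO. KO was lower without overlap in hypoxia, with log2 differences of -1.64 ± 0.11 (SE, edgeR FDR 3.29e-13) with vehicle and -1.38 ± 0.11 (SE, edgeR FDR 1.65e-11) with POVPC. Cxcr4, the signalling receptor of Cxcl12, had 0 counts in 16 of the 24 culture libraries.

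Among ligands of lower level, Ccl9, which binds Ccr1, stood at 9.18, 14.7 and 11.6 CPM in WT vehicle hypoxia and 2.36, 1.71 and 2.85 in KO, a difference of -2.39 ± 0.24 (SE, edgeR FDR 7.88e-10). With POVPC in hypoxia it was also called lower in KO at -1.4 ± 0.26 (SE, edgeR FDR 3.61e-05), and in normoxia it did not pass the test. Cxcl17, a ligand of mucosal tissues, stood at 1.83, 2.39 and 2.28 CPM in WT POVPC normoxia and 0.0636, 0.285 and 0.305 in KO, a difference of -3.32 ± 0.44 (SE, edgeR FDR 1.69e-07), with 2 to 8 counts in each KO library. Ccl25, a thymus and gut ligand of Ccr9, was called higher in KO in 3 conditions, at 1.28 ± 0.25 (SE, edgeR FDR 4.78e-05) in vehicle normoxia and 0.99 ± 0.24 (SE, edgeR FDR 0.000703) with POVPC in normoxia. Ccl27a, a skin ligand of Ccr10, was higher in KO by 1.25 ± 0.24 (SE, edgeR FDR 5.85e-05) with POVPC in hypoxia, where it stood at 1.66, 2.46 and 2.42 CPM in WT and 4.90, 3.97 and 6.71 in KO. Its exons share 4 bases with Il11ra1 on the opposite strand. Its receptor Ccr10 was lower in KO, at -1.10 ± 0.27 (SE, edgeR FDR 0.000808) in vehicle normoxia, with 0.974, 1.66 and 1.27 CPM in KO and 2.77, 2.96 and 2.71 in WT.

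Receptors other than Cxcr7 and Ccr10 were near the detection limit in culture. Xcr1, a dendritic cell receptor, was called higher in KO in vehicle normoxia at 2.99 ± 0.55 (SE, edgeR FDR 2.99e-05), on 20, 34 and 22 counts in KO and 2, 6 and 4 in WT. Ccr9 was called lower in KO with POVPC in normoxia at -2.53 ± 0.64 (SE, edgeR FDR 0.00124), on 7, 4 and 12 counts in KO and 37, 51 and 27 in WT. Ccl8 was called lower in KO with POVPC in hypoxia (edgeR FDR 6.94e-05), on 2, 4 and 0 counts in KO and 15, 18 and 41 in WT. The 6 culture libraries with 10 or more Ccl8 counts were those of WT in hypoxia. It thus passed the filter through the groups where it was high, and its calls are not independent of that. The fitted log2 value of Ccl8 there, -4.17, became -5.12 without KO POVPC hypoxia 2. Cxcr5 and Cx3cr1 were called in none of the 16 culture comparisons by edgeR.

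Some of these calls were lost when 1 library was left out, and their log2 differences without it are given with the FDR. In vehicle normoxia Ccl27a (0.51 ± 0.21, edgeR FDR 0.0345) stood at 0.39, FDR 0.149 without WT library 1 and 0.41, FDR 0.13 without KO library 1. Ccr9 (-1.67 ± 0.65, edgeR FDR 0.0278) stood at -1.09, FDR 0.208 without WT library 3 and -1.08, FDR 0.146 without KO library 2. In vehicle hypoxia Ccl25 (0.63 ± 0.23, edgeR FDR 0.0197) stood at 0.48, FDR 0.114 without WT library 1 and 0.58, FDR 0.0688 without KO library 1. Ccr10 there (-0.88 ± 0.30, edgeR FDR 0.013) stood at -0.74, FDR 0.0633 without WT library 1 and -0.70, FDR 0.0538 without KO library 3. With POVPC in normoxia Ccr10 (-0.69 ± 0.26, edgeR FDR 0.0233) stood at -0.52, FDR 0.127 without WT library 3 and -0.50, FDR 0.134 without KO library 2. With POVPC in hypoxia Cxcl17 (-1.47 ± 0.59, edgeR FDR 0.0356) was lost without WT library 2 (-1.47, FDR 0.0523), WT library 3 (-1.31, FDR 0.149), KO library 1 (-1.48, FDR 0.0689) or KO library 3 (-1.17, FDR 0.125). Xcr1 there (1.04 ± 0.44, edgeR FDR 0.044) was lost without WT library 2 (0.84, FDR 0.134), WT library 3 (1.06, FDR 0.102), KO library 1 (0.92, FDR 0.119) or KO library 2 (0.94, FDR 0.109).

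The response to POVPC was asked within each genotype and oxygen level. In WT in normoxia 6 members rose (background 13.1% of genes) and 3 fell (background 13.8%), or 5 and 4 with scaling by library size alone. Cx3cl1 rose by 1.84 ± 0.11 (SE, edgeR FDR 1.14e-13), Ccl7 by 1.53 ± 0.15 (SE, edgeR FDR 6.93e-09), Ccl2 by 1.28 ± 0.16 (SE, edgeR FDR 2.6e-07), Cxcl1 by 0.66 ± 0.14 (SE, edgeR FDR 0.000511) and Cxcr7 by 0.60 ± 0.099 (SE, edgeR FDR 2.41e-05), on the log2 scale. Cxcl17 rose on few counts, 43, 66 and 46 with POVPC and 25, 32 and 35 with vehicle, at 1.03 ± 0.36 (SE, edgeR FDR 0.0308). This call was lost without vehicle library 1 or 2 or POVPC library 2 or 3, at FDR 0.0821 to 0.114. Cxcl16 fell with a log2 change of -0.88 ± 0.18 (SE, edgeR FDR 0.00051), Cxcl12 of -0.57 ± 0.078 (SE, edgeR FDR 1.24e-06) and Cxcl15 of -0.41 ± 0.092 (SE, edgeR FDR 0.00104). In each of these 9 genes the POVPC and vehicle libraries did not overlap, but the genes were picked by their calls. The share of all 14496 genes tested without such overlap was not counted.

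In WT in hypoxia 3 members rose with POVPC (background 8.22%) and 4 fell (background 12.7%). Ccl7 rose by 1.95 ± 0.18 (SE, edgeR FDR 8.58e-09), Ccl2 by 1.6 ± 0.16 (SE, edgeR FDR 2.35e-08) and Cxcl1 by 0.63 ± 0.17 (SE, edgeR FDR 0.00865). Cxcl15 changed by -1.61 ± 0.096 (SE, edgeR FDR 7.47e-13), Ccl9 by -1.53 ± 0.22 (SE, edgeR FDR 1.01e-05), Cxcl17 by -1.92 ± 0.44 (SE, edgeR FDR 0.00208) and Cxcl12 by -0.49 ± 0.078 (SE, edgeR FDR 3e-05). Cx3cl1, which stood highest with POVPC in normoxia, was at -0.11 ± 0.13 (SE, edgeR FDR 0.622) here. The call of Cxcl1 was lost without library 3 of WT POVPC hypoxia (0.51, FDR 0.0683). With the 3 shallowest culture libraries left out, and 1 library in this WT group, Cxcl12 (-0.35, FDR 0.051) and Cxcl17 (-1.78, FDR 0.0639) were no longer called.

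In KO in normoxia 0 members rose (background 0.0069%) and 0 fell (background 0.0345%) by edgeR and by DESeq2. Of the 20 members tested, 2 had an unadjusted p under 0.05, which about 1 of 20 genes has by chance. These were Cxcl15 with a log2 change of -0.36 ± 0.092, edgeR FDR 0.284, and Cxcr7 with 0.25 ± 0.1, edgeR FDR 0.655. Ccl2 stood at a log2 change of -0.50 ± 0.28 (SE, edgeR FDR 0.676), Ccl7 at -0.37 ± 0.28 (SE, edgeR FDR 0.731), Cxcl1 at -0.29 ± 0.14 (SE, edgeR FDR 0.667) and Cx3cl1 at 0.17 ± 0.12 (SE, edgeR FDR 0.723). Without KO vehicle normoxia 3, Cxcl15 alone was called lower (-0.47, FDR 0.0128). In KO in hypoxia 1 member rose (background 1.97%) and 1 fell (background 2.09%): Cx3cl1 by 0.81 ± 0.16 (SE, edgeR FDR 0.00267), and Cxcl15 at -0.84 ± 0.098 (SE, edgeR FDR 5.48e-06).

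The difference between the genotypes' POVPC responses was tested as an interaction, KO minus WT. In normoxia 2 members were positive (background 8.17%) and 5 negative (background 8%). The negative ones were Cx3cl1 at -1.67 ± 0.17 (SE, edgeR FDR 1.04e-08), Ccl7 at -1.90 ± 0.32 (SE, edgeR FDR 6.66e-05), Ccl2 at -1.78 ± 0.32 (SE, edgeR FDR 0.000149), Cxcl1 at -0.95 ± 0.20 (SE, edgeR FDR 0.000973) and the receptor Xcr1. These 4 ligands are among those that rose in WT. The interaction subtracts that WT rise from the same libraries, so their sign is no separate result. Cxcl17, which also rose in WT, stood at -1.18 ± 0.69 (SE, edgeR FDR 0.294). Cxcl12 was positive at 0.64 ± 0.11 (SE, edgeR FDR 8.98e-05). The call of Xcr1 (-2.38 ± 0.77, edgeR FDR 0.0308) was lost without WT vehicle 1 or 3, WT POVPC 2 or 3, KO vehicle 2 or KO POVPC 1 or 3 in normoxia, at FDR 0.0502 to 0.126. That of Cxcl16 (0.73 ± 0.24, edgeR FDR 0.0391) was lost without WT vehicle 2 or 3, WT POVPC 1 or 2, KO vehicle 2 or 3 or KO POVPC 2 or 3, at FDR 0.0632 to 0.123.

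In hypoxia 2 members had a positive interaction with POVPC (background 5.89%) and 3 a negative one (background 3.48%). Ccl7 stood at -1.81 ± 0.36 (SE, edgeR FDR 0.00136), Ccl2 at -1.20 ± 0.26 (SE, edgeR FDR 0.00303) and Cxcl1 at -0.90 ± 0.25 (SE, edgeR FDR 0.0194), and Cxcl15 at 0.77 ± 0.14 (SE, edgeR FDR 0.000383) and Cx3cl1 at 0.91 ± 0.21 (SE, edgeR FDR 0.00488). With the 3 shallowest libraries left out, and again 1 library in WT POVPC hypoxia, 2 of the 5 calls were made, and Ccl2 (-1.14, FDR 0.0571), Cxcl1 (-1.05, FDR 0.0796) and Cx3cl1 (0.71, FDR 0.124) missed the threshold. Cxcl1 also missed it without WT POVPC hypoxia 3 (FDR 0.0541) and without KO vehicle hypoxia 2 (FDR 0.0612).

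**Figure D3:**
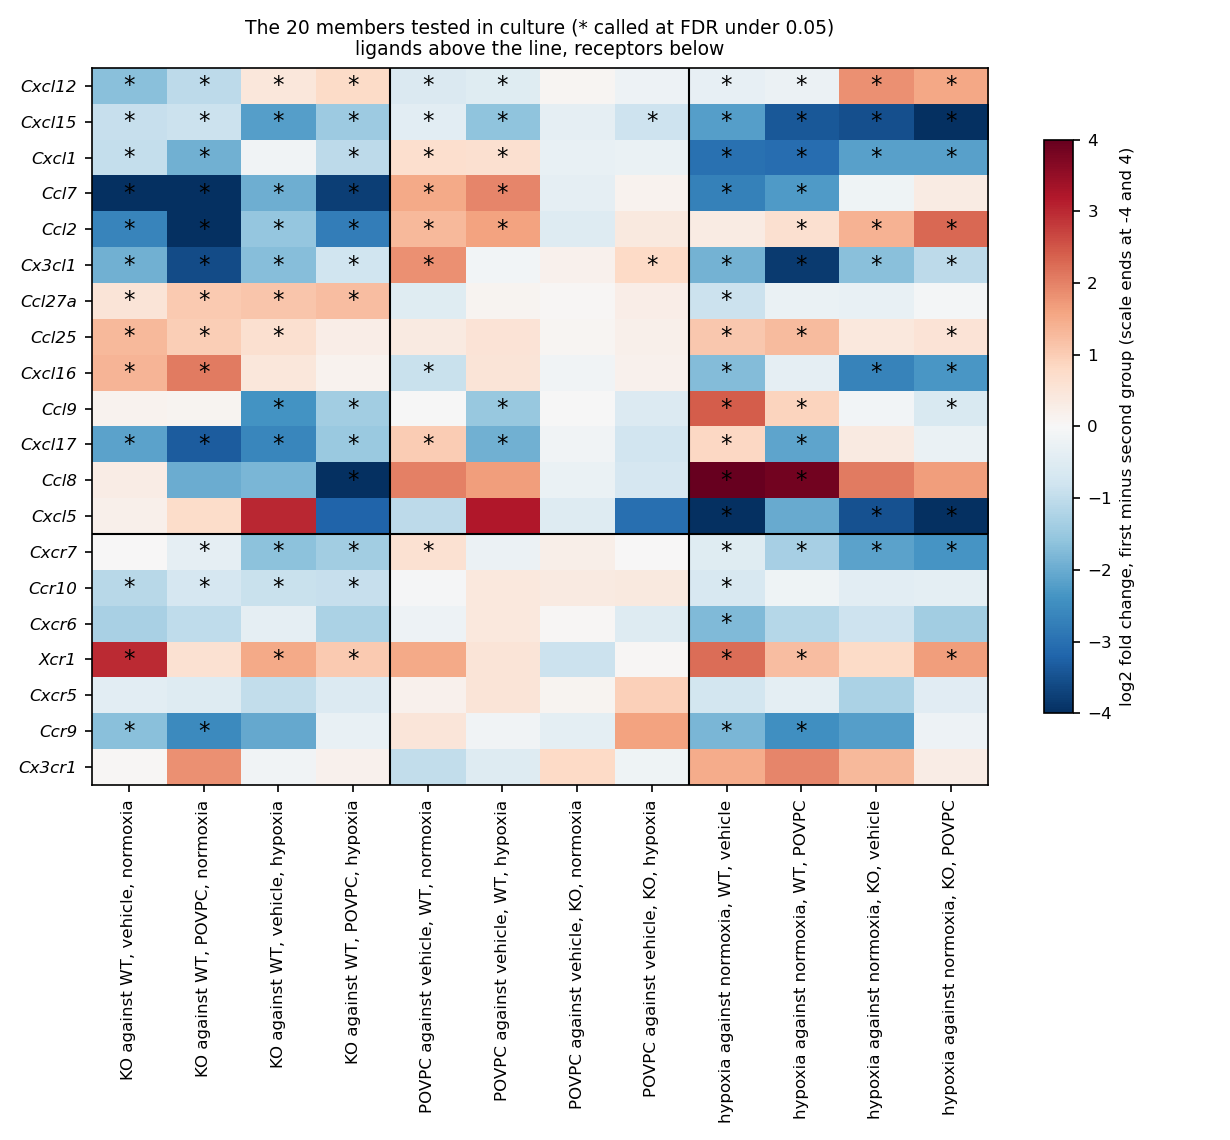
Log2 fold changes (colour, scale ends at -4 and 4) of the 20 members tested in culture (rows, ligands above receptors) in the 12 pairwise comparisons (columns), with an asterisk where edgeR called the gene. In the KO against WT columns Ccl2 and Ccl7 are called lower in all 4, and the column for POVPC in KO in normoxia holds no asterisk; values of Cxcl5 and Ccl8 rest on few counts, and where a group had 0 they depend on the prior count.

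Hypoxia changed more members than POVPC in each genotype, as it did among all genes. Of all 14496 genes, 9866 were called for hypoxia in WT with vehicle and 9586 with POVPC, and 9481 and 9924 in KO. For POVPC 3896 were called in WT in normoxia and 3037 in hypoxia, and 6 and 588 in KO. In WT with vehicle 5 members rose (background 32.8%) and 12 fell (background 35.3%), and with POVPC 5 rose (background 31.8%) and 8 fell (background 34.3%). In KO with vehicle 2 rose (background 32.6%) and 6 fell (background 32.8%), and with POVPC 4 rose (background 34.5%) and 7 fell (background 33.9%). The count of members that rose was below the background share in all 4 comparisons. The 12 that fell in WT with vehicle were above it, and the other counts of falling members lay near it.

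Cxcl15, Cxcl1, Cx3cl1 and Cxcr7 fell in hypoxia in all 4 comparisons. For Cxcl15 the log2 change was -2.20 ± 0.096 (SE, edgeR FDR 4.07e-18) in WT vehicle, -3.40 ± 0.10 (SE, edgeR FDR 1.07e-21) in WT POVPC, -3.51 ± 0.10 (SE, edgeR FDR 5.88e-22) in KO vehicle and -3.98 ± 0.11 (SE, edgeR FDR 5.48e-23) in KO POVPC. For Cxcl1 it was -2.99 ± 0.16, -3.03 ± 0.16, -2.18 ± 0.16 and -2.17 ± 0.16 in the same order (SE, edgeR FDR at most 1.06e-11). For Cx3cl1 it was -1.88 ± 0.12, -3.83 ± 0.13, -1.67 ± 0.15 and -1.04 ± 0.13 (edgeR FDR at most 5.55e-08). Cxcr7 changed by -0.50 ± 0.10, -1.33 ± 0.10, -2.14 ± 0.11 and -2.36 ± 0.11 (edgeR FDR at most 8.25e-05). Cxcl16 fell in WT vehicle (-1.75 ± 0.20, edgeR FDR 6.78e-09), KO vehicle (-2.66 ± 0.19, edgeR FDR 9.49e-13) and KO POVPC (-2.33 ± 0.18, edgeR FDR 3.8e-12), and stood at -0.37 ± 0.22 (SE, edgeR FDR 0.148) in WT POVPC.

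Ccl2 and Ccl7, neighbours and both Ccr2 ligands, moved apart under hypoxia. Ccl7 fell in WT, with a log2 change of -2.69 ± 0.17 (SE, edgeR FDR 1.2e-13) with vehicle and -2.27 ± 0.16 (SE, edgeR FDR 1.5e-12) with POVPC, and stood at -0.19 ± 0.30 (SE, edgeR FDR 0.596) and 0.32 ± 0.28 (SE, edgeR FDR 0.318) in KO, where it was already low. Ccl2 rose in KO by 1.4 ± 0.24 (SE, edgeR FDR 1.02e-05) with vehicle and 2.30 ± 0.23 (SE, edgeR FDR 5.5e-10) with POVPC, rose in WT with POVPC by 0.63 ± 0.16 (SE, edgeR FDR 0.000826), and stood at 0.31 ± 0.16 (SE, edgeR FDR 0.0916) in WT with vehicle. That WT vehicle value was called when WT vehicle hypoxia 3 was left out (0.44, FDR 0.0307).

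Cxcl12 rose in hypoxia in KO, by 1.82 ± 0.081 (SE, edgeR FDR 8.65e-18) with vehicle and 1.56 ± 0.08 (SE, edgeR FDR 1.98e-16) with POVPC. In WT its change was small and downward, -0.33 ± 0.078 (SE, edgeR FDR 0.000557) with vehicle and -0.25 ± 0.078 (SE, edgeR FDR 0.00687) with POVPC, and the latter call was lost without WT POVPC hypoxia 2 (-0.16, FDR 0.0867) and without the 3 shallowest culture libraries (-0.078, FDR 0.565). Ccl9 rose in WT, by 2.41 ± 0.22 (SE, edgeR FDR 1.11e-10) with vehicle and 0.89 ± 0.25 (SE, edgeR FDR 0.00253) with POVPC, the latter lost without WT POVPC hypoxia 3 (0.58, FDR 0.0827). In KO it stood at -0.11 ± 0.26 (SE, edgeR FDR 0.731) with vehicle and -0.62 ± 0.26 (SE, edgeR FDR 0.0323) with POVPC, and the latter call was lost without KO POVPC normoxia 1 or KO POVPC hypoxia 1 or 3 (FDR 0.109, 0.12 and 0.064). Ccl25 rose in WT by 1.08 ± 0.25 (SE, edgeR FDR 0.000336) with vehicle and 1.26 ± 0.25 (SE, edgeR FDR 7.78e-05) with POVPC. In KO with POVPC its call (0.55 ± 0.22, edgeR FDR 0.0268) was lost without KO POVPC normoxia 1 or 2 or without any of the 3 hypoxia libraries, at FDR 0.052 to 0.0813.

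A few members appeared or disappeared with oxygen. Ccl8, a monocyte ligand in the Ccl2 cluster, had 2, 0 and 0 counts in WT vehicle normoxia and 14, 10 and 16 in WT vehicle hypoxia (edgeR FDR 0.000721). With POVPC it had 0, 8 and 0 counts in normoxia and 15, 18 and 41 in hypoxia (edgeR FDR 7.65e-05). Ccl8 passed the filter through these WT hypoxia groups, so the calls are not independent of it. The fitted log2 values, 4.22 and 3.87, became 6.61 without WT vehicle normoxia 1 and 8.27 without WT POVPC normoxia 2, so their size is not known. Cxcl5, an epithelial and stromal neutrophil ligand, had 6, 10 and 20 counts in WT vehicle normoxia and 0 in WT vehicle hypoxia. With the empty group set to 3 counts in all, this was 10.5-fold lower. In KO with POVPC it had 8, 10 and 10 counts in normoxia and 0 in hypoxia, 7.48-fold lower in the same way. A pair can count as 2 reads, so an empty group allows more than 3 counts and these folds may be smaller. In KO with vehicle it had 10, 10 and 12 counts in normoxia and 0, 0 and 2 in hypoxia, and that call was lost without KO vehicle hypoxia 1 (FDR 0.0516). Cxcl5 reached 10 counts only in normoxia, so it too passed the filter through groups where it was high. Cxcl17 was called higher in hypoxia in WT with vehicle (0.83 ± 0.36, edgeR FDR 0.0425) and lower with POVPC (-2.12 ± 0.44, edgeR FDR 0.000106).

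Of the lower-level receptors, Xcr1 was called higher and Cxcr6, Ccr9 and Ccr10 lower in hypoxia in WT with vehicle. Several of these calls were lost when 1 library was left out. Cxcr6 was lost without WT vehicle normoxia 2 or hypoxia 2 (FDR 0.0738 and 0.0566). Ccr10 and the ligand Cxcl17 were lost without WT vehicle normoxia 1 or 2 or hypoxia 2 or 3, at FDR 0.0551 to 0.122 and 0.0932 to 0.14. Ccr9 was lost without WT vehicle normoxia 3 or hypoxia 1 or 2, at FDR 0.0505 to 0.132. In WT with POVPC Xcr1 (1.23 ± 0.52, edgeR FDR 0.0377) was lost without normoxia 1 or hypoxia 1 or 3, at FDR 0.0978 to 0.166.

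The genotypes' hypoxia responses were compared directly, again KO minus WT. With vehicle 4 members were positive (background 19.2%) and 4 negative (background 19.9%), and with POVPC 5 were positive (background 15.7%) and 4 negative (background 14.4%). Cxcl12 was positive at 2.15 ± 0.11 (SE, edgeR FDR 3.82e-15) with vehicle and 1.81 ± 0.11 (SE, edgeR FDR 2.63e-13) with POVPC, Ccl7 at 2.50 ± 0.36 (SE, edgeR FDR 2.33e-06) and 2.59 ± 0.33 (SE, edgeR FDR 5.22e-07), and Ccl2 at 1.09 ± 0.29 (SE, edgeR FDR 0.00398) and 1.67 ± 0.28 (SE, edgeR FDR 2.98e-05). Cxcl1 was positive too, at 0.81 ± 0.22 (SE, edgeR FDR 0.00509) and 0.86 ± 0.22 (SE, edgeR FDR 0.0042), the latter missing the threshold without the 3 shallowest libraries (FDR 0.0987). Cx3cl1 was positive with POVPC at 2.78 ± 0.18 (SE, edgeR FDR 1.18e-12) and stood at 0.20 ± 0.20 (SE, edgeR FDR 0.438) with vehicle. Cxcr7 (-1.64 ± 0.15, edgeR FDR 5.74e-10, and -1.03 ± 0.15, edgeR FDR 3.23e-06), Ccl9 (-2.52 ± 0.34, edgeR FDR 7.44e-07, and -1.51 ± 0.36, edgeR FDR 0.00158), Cxcl15 (-1.31 ± 0.13, edgeR FDR 4.29e-09, and -0.58 ± 0.13, edgeR FDR 0.00131) and Cxcl16 (-0.91 ± 0.28, edgeR FDR 0.0114, and -1.96 ± 0.29, edgeR FDR 5.06e-06) were negative with vehicle and with POVPC.

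Genes around the chemokines in the pathway were read from lists by function. NF-kB factors and inhibitors, which control many chemokine genes, had 10 of 10 tested in culture. With POVPC in WT normoxia 4 rose (background 13.1%), among them Nfkbiz at 0.80 ± 0.081 (SE, edgeR FDR 6.48e-09), Nfkb2 at 0.85 ± 0.1 (SE, edgeR FDR 8.48e-08) and Relb at 0.58 ± 0.12 (SE, edgeR FDR 0.000366). In the same comparison 2 fell (background 13.8%), with Tnfaip3, an inhibitor, at -0.92 ± 0.092 (SE, edgeR FDR 4.88e-09). Between KO and WT with POVPC in normoxia 1 was higher (background 29.5%), the inhibitor Nfkbia at 1.90 ± 0.087 (SE, edgeR FDR 2.28e-17). In that comparison 6 were lower (background 30.7%), among them Nfkbiz at -1.17 ± 0.082 (SE, edgeR FDR 3.71e-13), Nfkb2 at -1.12 ± 0.10 (SE, edgeR FDR 8.47e-11) and Tnfaip3 at -1.03 ± 0.096 (SE, edgeR FDR 2.12e-10). With vehicle in normoxia the counts were also 1 higher (background 29.8%) and 6 lower (background 30.8%). In hypoxia they were 2 (background 29.5%) and 3 (background 30.4%) with vehicle, and 3 (background 30%) and 3 (background 27.6%) with POVPC.

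Of the inducing cytokines and receptors, 8 of 12 were tested in culture. With POVPC in WT normoxia 5 rose and 0 fell (background 13.1% and 13.8%), with Il6 at 2.97 ± 0.43 (SE, edgeR FDR 2.78e-06) and the TNF receptor Tnfrsf1a at 1.61 ± 0.087 (SE, edgeR FDR 9.63e-15). With POVPC in KO normoxia 0 rose and 0 fell, where of all 14496 genes 1 rose (background 0.0069%) and 5 fell (background 0.0345%). Between KO and WT with POVPC in normoxia 1 was higher (background 29.5%) and 6 were lower (background 30.7%). Among the lower were the interferon receptor Ifngr1 at -1.70 ± 0.068 (SE, edgeR FDR 9.17e-19) and the pattern receptor Tlr2 at -2.36 ± 0.14 (SE, edgeR FDR 5.64e-15). Of the 5 interferon factors, 4 rose with POVPC in WT normoxia (background 13.1%), Stat2 at 0.96 ± 0.11 (SE, edgeR FDR 9.24e-08). In KO against WT with POVPC in normoxia 4 were lower (background 30.7%), Irf1 at -1.29 ± 0.086 (SE, edgeR FDR 1.31e-13), and 1 higher (background 29.5%).

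Signalling genes downstream of the receptors (G proteins, kinases and arrestins) had 11 of 16 tested. Between KO and WT with POVPC in normoxia 7 were higher (background 29.5%), such as Arrb1, an arrestin, at 0.94 ± 0.11 (SE, edgeR FDR 1.59e-08), and 3 lower (background 30.7%), such as the receptor kinase Adrbk2 at -6.21 ± 0.38 (SE, edgeR FDR 1.46e-14). Of the atypical and chemokine-like receptors 3 of 5 were tested, and in the same comparison 2 were higher, Ccrl2 at 2.96 ± 0.55 (SE, edgeR FDR 3.82e-05) and Cmklr1 at 2.83 ± 0.18 (SE, edgeR FDR 7.95e-14).

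In lesions 40 members were tested (25 ligands, 15 receptors) and none was called higher (background 0%) or lower (background 0%) in KO by edgeR, as for all 14993 genes. At an unadjusted p under 0.05 there were 13 members and 2216 genes. DESeq2 called 489 genes and 2 of the members, Ccl6 (0.84, FDR 1.18e-05) and Ccr2 (0.61, FDR 0.0311). With no filter on low counts edgeR called 11 genes, and among the members Ccl6 (0.85, FDR 0.0416). Log2 differences KO minus WT were positive in 28 of the 40 members tested, with a median of 0.31, and in 7301 of the 14993 genes, with a median of -0.0086. Among receptors 12 of 15 were positive and among ligands 16 of 25. All 59 genes together summed to 1362 to 1635 CPM in KO and 965 to 1257 in WT. In bulk tissue fewer cells of a type and less RNA per cell cannot be told apart.

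The KO and WT animals did not overlap for Ccl6, Ccr2 and Cxcr4. The share of all 14993 genes tested without such overlap was not counted, so these members cannot be set against it. Ccl6, a myeloid ligand at chr11:83401388-83406589 (minus strand, mm9), stood at 243, 302, 216 and 213 CPM in KO and 152, 134, 131 and 125 in WT. Its log2 difference was 0.85 ± 0.13 (SE, edgeR FDR 0.137). Ccr2, the monocyte receptor for Ccl2 and Ccl7 at chr9:124016922-124023879 (plus strand, mm9), stood at 104, 121, 126 and 91.2 CPM in KO and 67.3, 79.5, 86.2 and 54.2 in WT, a difference of 0.62 ± 0.16 (SE, edgeR FDR 0.172). Cxcr4 stood at 74.5, 86.2, 73.9 and 87.4 CPM in KO and 38.8, 72.1, 46.2 and 67.5 in WT, a difference of 0.52 ± 0.19 (SE, edgeR FDR 0.257).

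The other members with the smallest p overlapped between genotypes. Ccr1 stood at 13.5, 22.7, 19.2 and 18.6 CPM in KO and 15.7, 11.8, 8.63 and 10.3 in WT (0.68 ± 0.21, edgeR FDR 0.203). Its ligand Ccl9 stood at 99.3, 100.5, 85.4 and 87.7 CPM in KO and 86.5, 70.1, 53.1 and 53.0 in WT (0.50 ± 0.16, edgeR FDR 0.214), with WT animal 1 inside the KO range. Cxcl14, an epithelial and stromal ligand, stood at 24.1, 14.2, 7.18 and 14.1 CPM in KO and 7.20, 8.26, 7.03 and 6.99 in WT (1.00 ± 0.31, edgeR FDR 0.204), where KO animals spread widely and WT animals little. Cxcr7 stood at 109.9, 103, 119.6 and 96.3 CPM in KO and 82.5, 82.5, 100.2 and 80.2 in WT (0.31 ± 0.10, edgeR FDR 0.223). Cxcl16 stood at 72.5, 116, 105 and 174 CPM in KO and 59.4, 83.1, 78.2 and 54.1 in WT (0.77 ± 0.26, edgeR FDR 0.237).

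**Figure D4:**
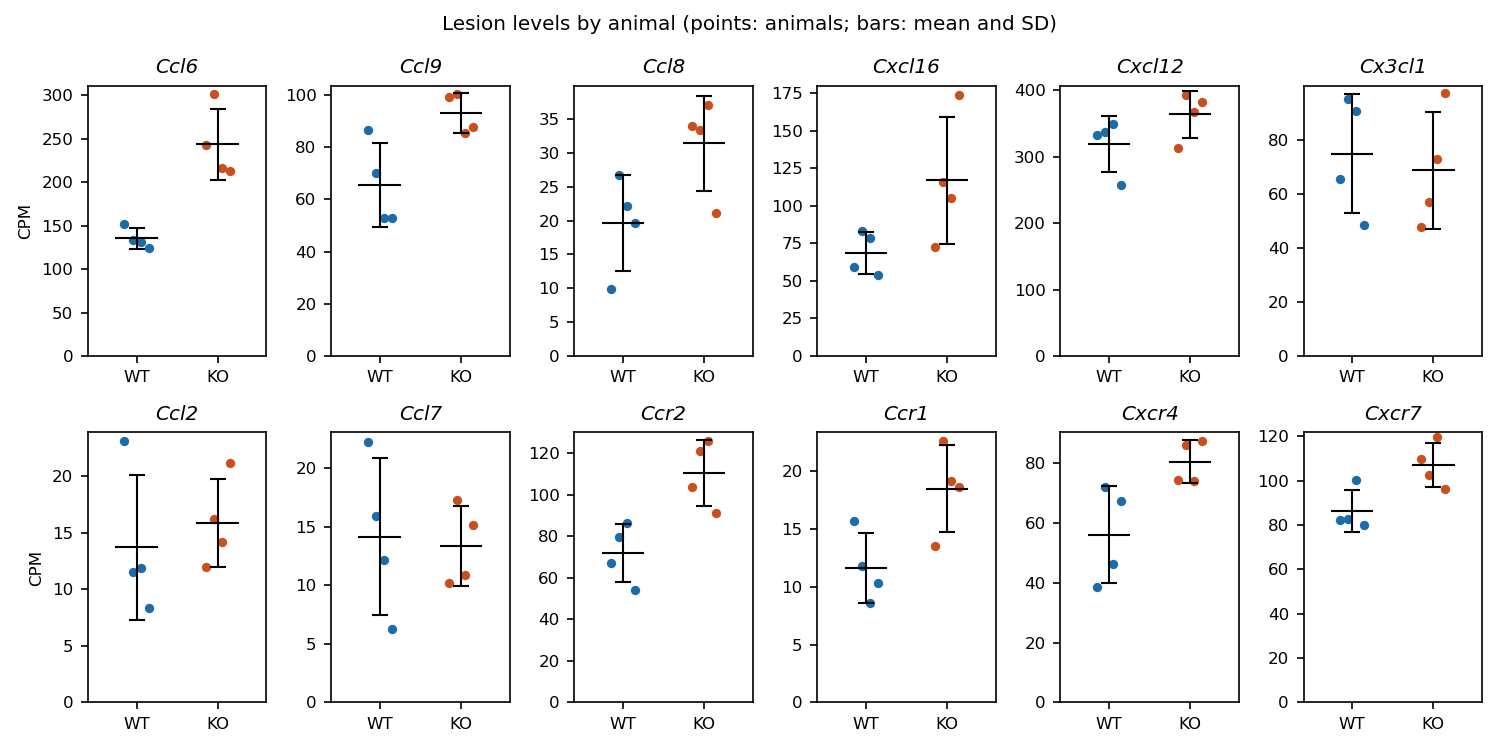
Level of 12 members in each lesion animal in CPM (y axis from 0), WT in blue and KO in orange, with the mean and SD of 4 animals. Ccl6, Ccr2 and Cxcr4 show no overlap between genotypes, while Ccl2 and Ccl7 overlap.

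Ligands that differed between the culture lines overlapped between genotypes in lesions. Ccl2 stood at 11.99, 16.2, 14.1 and 21.1 CPM in KO and 23.04, 11.5, 11.8 and 8.34 in WT (0.23 ± 0.31, edgeR FDR 0.757), and Ccl7 at 10.2, 17.3, 10.9 and 15.1 CPM in KO and 22.3, 15.9, 12.2 and 6.26 in WT (-0.072 ± 0.35, edgeR FDR 0.935). Cx3cl1 stood at 47.8, 56.9, 72.8 and 97.5 CPM in KO and 65.5, 95.1, 90.7 and 48.6 in WT (-0.12 ± 0.27, edgeR FDR 0.843), Cxcl1 at 8.04, 13.3, 13.5 and 23.5 CPM in KO and 12.3, 9.68, 22.3 and 6.05 in WT (0.22 ± 0.43, edgeR FDR 0.825) and Cxcl12 at 314, 393, 367 and 383 CPM in KO and 333, 337, 349 and 257 in WT (0.19 ± 0.13, edgeR FDR 0.519). With 4 animals a group these values do not show that the genotypes were alike. Ccl8 stood at 34.0, 33.4, 37.2 and 21.1 CPM in KO and 9.95, 26.8, 22.2 and 19.7 in WT (0.67 ± 0.29, edgeR FDR 0.327). The largest negative value was that of Ccr9, -0.92 ± 0.43 (SE, edgeR FDR 0.363), with 2.58, 5.10, 7.28 and 6.18 CPM in KO and 18.9, 6.13, 9.70 and 6.15 in WT.

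**Figure D5:**
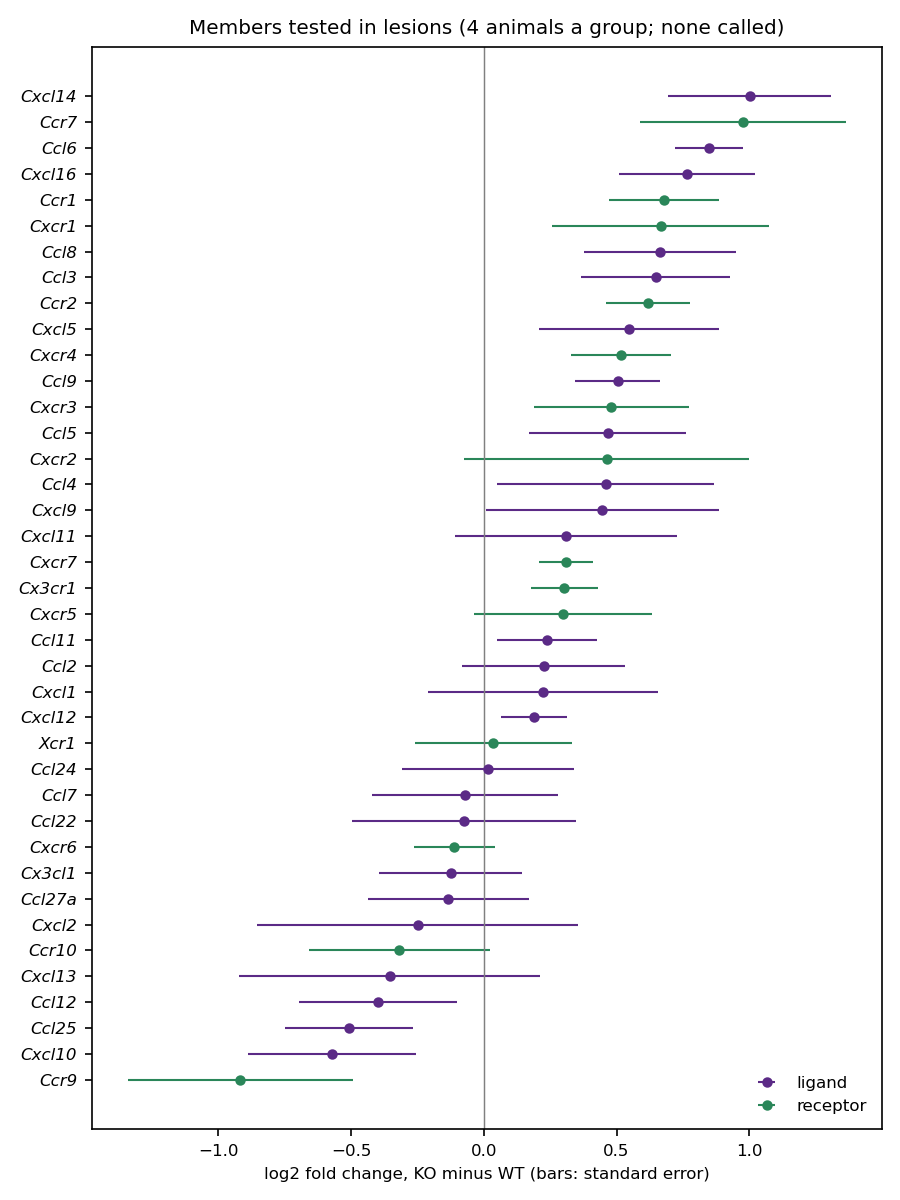
Log2 fold change KO minus WT (x axis) with its standard error for 39 of the 40 members tested in lesions, ordered by value, ligands in purple and receptors in green. Values run from -0.92 for Ccr9 to 1.00 for Cxcl14, and none passed the test.

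Among cell type markers in lesions, the sums for macrophages and endothelium did not overlap between genotypes, and those of the other cell types did. No marker was called, and the share of all genes without such overlap was not counted. The 8 macrophage markers measured summed to 3618 to 8319 CPM in KO and 2167 to 3247 CPM in WT. Of these, 8 of 8 had a positive difference, with a median of 0.59 and Lyz2 the largest at 1.30 ± 0.28 (SE, edgeR FDR 0.17). Dendritic cell markers summed to 213 to 587 CPM in KO and 155 to 268 in WT. T cell markers summed to 14.9 to 62.9 CPM in KO and 28.9 to 53.3 in WT, B cell markers to 6.97 to 21.4 in KO and 5.76 to 9.60 in WT, and neutrophil markers to 8.75 to 16.8 in KO and 4.38 to 18.7 in WT. Endothelial markers summed to 831 to 988 CPM in KO and 666 to 791 in WT, and smooth muscle markers were negative in 5 of 5. Thymus markers, which include Rag1 and Ptcra, summed to 6.37 to 44.5 CPM in KO and 23.1 to 108 in WT, which overlap. Of these 5 markers 2 were tested, with 0 positive and 0 called. The part of these cell types in the chemokine values was not tested. All 11 inducing cytokines and receptors tested in lesions had positive differences without a call, Il1a at 1.05 ± 0.24 (SE, edgeR FDR 0.17) and Il1b at 0.58 ± 0.21 (SE, edgeR FDR 0.254), and the platelet chemokines Pf4 and Ppbp stood at 0.37 ± 0.28 (SE, edgeR FDR 0.576) and 0.69 ± 0.58 (SE, edgeR FDR 0.613).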

How the data were processed

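RNA sequencing counts of 24 culture and 8 lesion libraries were used. Per the file headers, the deposited counts were made with featureCounts 1.4.4 over exons by gene name on build mm9, without strand, as fragments in lesions and as single mates in culture, where each pair can count as 2 reads. The submitters' processing notes also name CASAVA, STAR and DESeq2. Groups were taken from the labels.

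Each table was fitted with edgeR 4.0.16 in R 4.3.3 (TMM scaling, filterByExpr with a minimum count of 10 and a total of 15, robust quasi-likelihood F-test, Benjamini-Hochberg adjustment over all genes, threshold 0.05). The 24 culture libraries shared one model, so pairwise comparisons share control libraries. A standard error is the log2 fold change divided by the square root of F. The scripts were tested on simulated data. Alternatives were RLE or library-size scaling, no filter, DESeq2 1.42.0, the replicate number as a block, each library left out, culture counts halved, and the compared groups fitted alone. After seeing the data, leaving out the 3 shallowest culture libraries, and KO animal 4 with WT animal 1, was added. Two-sided p-values are used throughout.

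The members and lists were chosen with earlier results of these data known. Genes named with values were Ccl2, Ccl7, the 10 other members called in most culture comparisons, and in lesions the 6 with the highest mean RPKM and the 6 with the smallest p. Others fill a ligand or receptor role, and from other lists at most 4 with the smallest p in a comparison are named. No pair of libraries was alike within sampling noise. Values of 1 receptor, included in the counts and medians of members, are not reported here. Floors of 3 counts cover counting error only, while standard errors include the spread between libraries.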

Additional observations from a re-analysis of the deposited data

Results flagged for a closer look

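Among 78 groups of 4 animals tested, 6 member levels had 1 lesion animal far from the other 3, a pattern that chance gives in about 1 of 20 groups. WT animal 1 had Cxcr2 at 2.88 CPM against 0.522 to 0.746 CPM in the others, WT animal 3 had Cxcr7 at 100 CPM against 80.2 to 82.5 CPM, and WT animal 2 had Cxcl14 at 8.26 CPM against 6.99 to 7.2 CPM. KO animal 4 had Ccr7, a receptor of lymph-node homing dendritic and T cells, at 5.46 CPM against 2.28 to 2.64 CPM, and Ccl22, a dendritic cell ligand, at 2.47 CPM against 0.728 to 0.95 CPM. KO animal 1 was low in Ccl12, a monocyte ligand, at 2.43 CPM against 4.12 to 4.37 CPM.

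In culture the interaction test (edgeR) found a response that differed between the genotypes in 29 cases, given as the KO response minus the WT response on the log2 scale. For POVPC in normoxia these were Ccl2 at -1.78, Ccl7 at -1.9, Cx3cl1 at -1.67, Cxcl1 at -0.95, Xcr1 at -2.38, Cxcl16 at 0.73 and Cxcl12 at 0.64. For POVPC in hypoxia they were Ccl2 at -1.2, Ccl7 at -1.81, Cxcl1 at -0.9, Cxcl15 at 0.77 and Cx3cl1 at 0.91. For hypoxia with vehicle they were Ccl7 at 2.5, Cxcl12 at 2.15, Ccl2 at 1.09, Cxcl1 at 0.81, Ccl9 at -2.52, Cxcr7 at -1.64, Cxcl15 at -1.31 and Cxcl16 at -0.91. For hypoxia with POVPC they were Cx3cl1 at 2.78, Ccl7 at 2.59, Cxcl12 at 1.81, Ccl2 at 1.67, Cxcl1 at 0.86, Cxcl16 at -1.96, Ccl9 at -1.51, Cxcr7 at -1.03 and Cxcl15 at -0.58. Cx3cl1 had a negative value for POVPC in normoxia and a positive one in hypoxia, and the difference between those was not tested.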

How the results depend on the processing

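Across 5431 recomputed values, 5089 kept their direction and side of the threshold. Another 199 changed direction without a call, and 0 changed direction past a call. Of 147 member calls in culture, 29 were lost in at least 1 alternative and 118 in none of those in which they were tested. In lesions the count of members called went from 0 to 2 with DESeq2 and 1 with no filter, and all genes from 0 to 489 and 11, and 1 without KO animal 4 and WT animal 1. For POVPC in KO normoxia leaving out 1 library gave 0 to 1 members and 1 to 310 of all genes (310 without KO vehicle normoxia 3), against 6 in all libraries, 16 with DESeq2, 3 with library-size scaling and 0 with the 2 groups fitted alone. The genotype difference in the POVPC response in hypoxia had 2 members instead of 5 without the 3 shallowest libraries, and 426 of all genes (828 with the groups alone) instead of 1358. All genes changed by POVPC went from 3037 to 1720 (groups alone) and 1073 (shallowest out) in WT hypoxia, and in KO hypoxia from 588 to 341 (library size), 1012 (DESeq2) and 269 to 532 (1 library out, lowest without KO vehicle hypoxia 2). The cause was not tested. Scaling by library size alone moved the median log2 change of all genes to -0.16 for KO against WT with vehicle in normoxia, to -0.13 for POVPC in WT normoxia, to -0.21 for hypoxia in WT with vehicle, and to 0.20 and 0.13 for the genotype differences in the POVPC response in normoxia and in the hypoxia response with vehicle. The share of called genes that were higher became 37.0% (49.1% with TMM), 31.4% (48.7%), 36.4% (48.1%), 73.3% (50.5%) and 60.1% (49.2%) in those 5, 80.6% (62.9%) for the POVPC difference in hypoxia, and 33.3% (16.7%) and 78.3% (48.5%) for POVPC in KO normoxia and hypoxia. With 8063121 reads in the shallowest culture library, 3 counts equal 0.410 CPM, so members near that level could not be compared.

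The replicate numbers give no shared animal or day in the labels. Every pair of same-numbered libraries had a correlation of deviations over 0.1 only for hypoxia in KO with POVPC (0.119 to 0.377), while all were positive but not all over 0.1 for POVPC in WT hypoxia (0.0627 to 0.264) and KO against WT with POVPC in normoxia (0.0383 to 0.301). In the first the replicate block left 11 members called as without it. Elsewhere the block lost 1 member call, Xcr1 in KO against WT with POVPC in hypoxia (1.00, FDR 0.0608), and added Ccl8 in KO against WT with vehicle in hypoxia (-1.98, FDR 0.0472) and Cxcl17 in the genotype difference of the hypoxia response with POVPC (1.91, FDR 0.0485). In lesions the block left 0 members called.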
